A study of Homo sapiens with 35 samples.

Results

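Long stretches of chromosome that touch the nuclear lamina were followed cell by cell, to ask whether a cell contacts such a domain whole or in part. The domains were 26 autosomal regions of 5 Mb or more in which every 100-kb bin was in contact with the lamina in 20% or more of 29 single cells. They held 1811 of the 25097 autosomal bins with a value in all cells (7.216%). Of those 25097 bins, 10235 (40.8%) were in contact in 20% or more of the cells, and the domains held 17.69% of that set.

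All cells came from 1 group: the labels give them as diploid (2N) cells of clone 5-5 of the line KBM7, which derives from a human leukaemia. The cells carried Dam, a bacterial adenine methylase, fused to LaminB1, and the fusion was switched on with 0.5 nM Shield1 for 15 h. Single cells were then sorted from the 2% smallest cells that were positive for both Fucci cell-cycle markers. Clone 5-5 is 1 clone, and neither control cells nor cells with unfused Dam were used here. The measure, called OE, divides the reads seen by the reads expected, in bins of 100 kb for every cell. An OE of 1 or more was taken as a contact, and positions are those of the build hg19. These cells had 2 copies of a chromosome and 15 h of labelling, so a contact may come from either copy and from any moment of that time. A cell in which 1 copy touched the lamina whole and a cell in which both copies touched it in different places cannot be told apart.

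The nuclear lamina is a mesh of lamin filaments under the inner nuclear membrane. Chromatin that lies against it forms lamina-associated domains, which are mostly poor in genes, weakly transcribed and late to replicate. DamID marks DNA that was near the lamina in a living cell, because the tethered methylase leaves methyl groups at GATC sites, and DpnI then cuts only methylated sites.

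Depth differed between the cells. The 29 cells had 40279 reads (cell 2) at the lowest, 126621 at the median and 258225 (cell 24) at the highest, recovered from the steps of the OE values. A single read was worth a median OE of 0.094 in the deepest cell and 0.605 in the sparsest. Chromosome 8 had no values, and 3 further cells (13, 15 and 17) with 985, 1221 and 1755 reads were not used to choose the domains. The number of reads moved with coverage, and where a value at equal depth is given, every cell was thinned to the 40279 reads of the sparsest.

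The 26 domains lay on 14 of the 21 autosomal names with values. Chromosome 4 held 5 of them, chromosomes 2 and 11 held 3 each, chromosomes 3, 5, 10 and 13 held 2 each, and chromosomes 1, 7, 12, 14, 16, 18 and 9:22 held 1 each. The name 9:22 is the table's own for a fusion of 2 chromosomes and was kept. The domains were 5 to 14.2 Mb long with a median of 6.5 Mb, and summed to 181.1 Mb. Runs of adjacent bins at the same limit of 20% numbered 954 in all and had a median length of 0.5 Mb. No domain lay within 5 Mb of a chromosome end, and the distance to the nearer end was 7.2 to 90.1 Mb. Of the 26, 10 lay on a short arm and 16 on a long arm, and 1 lay within 5 Mb of the centromere, taken as the longest stretch without values. That domain, chr4:42800001-48000000, ended 1.7 Mb from it. All 52 domain ends were next to a bin with a value under the limit, so none was set by missing values.

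The members were chosen by contact frequency, the share of the 29 cells in which a bin was in contact, so the frequencies below are a description. Its median was 82.76% in member bins, against 65.52% in the other autosomal bins of 20% or more. In the domains 1046 bins (57.76%) were in contact in 80% or more of the cells, 26 bins in all 29 cells, and 135 bins (7.454%) in under 50%. The domains held 30.62% of the 3416 autosomal bins of 80% or more. Over the domains, the mean contact frequency of the middle stretch (about 20% of the bins) was 80.7% ± 9.376 (SD, n = 26 domains) and that of the outermost 20% at either end 74.49% ± 6.849, with the middle higher in 20 domains. The limit of 50 bins falls among like runs. The shortest domains inside it, chr3:75700001-80700000 and chr4:90100001-95100000 with 50 bins each and chr13:68200001-73300000 with 51, had mean contact frequencies of 74.9%, 85.45% and 71.2%. The longest runs outside it were chr6:100100001-105000000 and chr18:24300001-29200000 with 49 bins each and chr3:82200001-87000000 with 48, at 74.52%, 75.58% and 80.68%.

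Both outcomes were found. The coverage of a domain in a cell was the share of its bins in contact there. A domain was called contacted whole at 80% or more, in part at 20% to under 80%, and little below 20%. There were 754 pairs of a domain and a cell, and of these 448 were whole, 295 in part and 11 little. Per cell that was 59.42% ± 22.65 of the domains whole, 39.12% ± 21.86 in part and 1.459% ± 3.154 little (SD, n = 29 cells). A domain was rarely left out and rarely filled without a gap: no pair had every bin out of contact, and 28 pairs, in 14 domains and 15 cells, had every bin in contact. Coverage was 90% or more in 278 pairs and 50% or more in 683 pairs (90.58%). The mean coverage of the 26 domains was 78.36% ± 9.655 per cell, with 52.73% in the lowest cell (cell 5), 78.23% in the median cell (cell 7) and 92.21% in the highest (cell 24). The other autosomal bins had 23.94% ± 3.68 in contact per cell, a gap that the choice of members builds in.

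**Figure D1:**
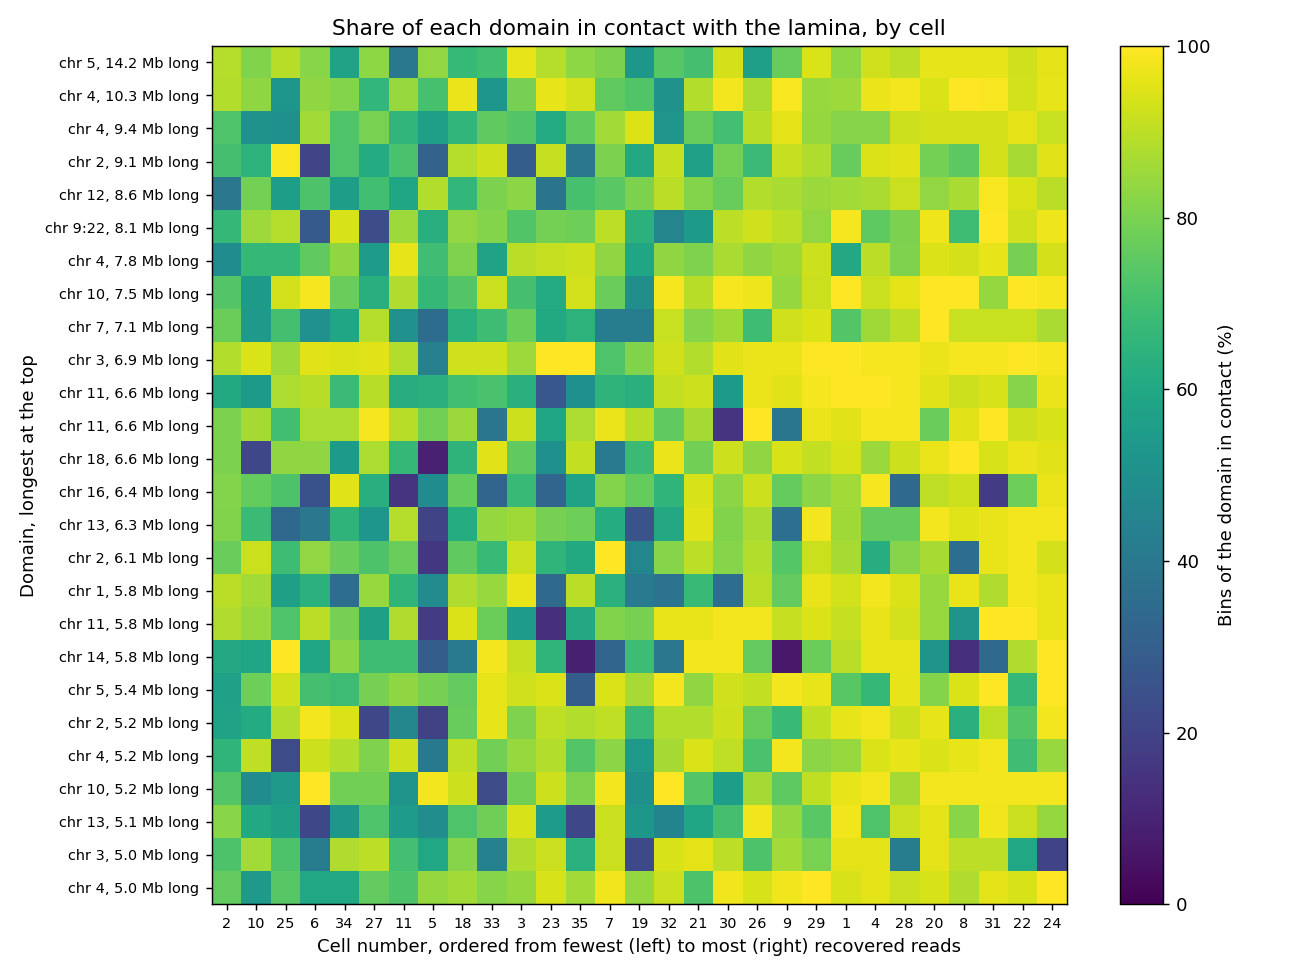
Share of the bins of each of the 26 domains (rows, longest at the top) that were in contact in each of the 29 cells (columns, fewest reads at the left), in percent by colour. Coverage was 80% or more in 448 of the 754 squares, most of them on the right, and under 20% in 11, of which cell 5 held 4.

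Whole contact was more frequent than partial contact in 19 of the 26 domains, and in 13 of the 26 at equal depth. Coverage by domain and cell, as plotted for all 754 pairs, ran highest on chromosome 3, far out on its long arm. There, chr3:162600001-169500000 was contacted whole in 27 cells and in part in 2, the highest number of whole contacts of any domain. Its coverage was 43.48% in the lowest cell (cell 5), 95.65% at the median and 100% at the highest, and 14 of its 69 bins touched the lamina in all cells. Its mean OE of 4.981 ± 1.801 (SD, n = 29) was also the highest, and the next was 3.008 on chromosome 11. Regional copy number was not measured in the values used here, and its part in that level was not tested.

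The domain with the fewest whole contacts was chr14:25200001-31000000, with 11 cells whole, 15 in part and 3 little. Its coverage was 6.897%, 68.97% and 100% at the lowest, median and highest, the widest spread of any domain (SD 29.35, n = 29). In cell 9 only 4 of its 58 bins were in contact. That cell had 189766 reads and contacted 17 of the 26 domains whole. Cell 8, with 225564 reads and 20 domains whole, covered 13.79% of the same domain, and cell 35, with 117698 reads, covered 8.621%. Of the other 312 bins of 20% or more on chromosome 14, 38.46% were in contact in cell 9, against a median of 57.69% over cells. At equal depth cell 9 covered 22.41% of the domain, against a median of 65.52% over cells, so its value moved with the thinning.

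The longest domain, chr5:17200001-31400000 (142 bins, 14.2 Mb), was contacted whole in 20 cells and in part in 9. Its coverage was 40.14% in cell 11, 83.1% at the median and 96.48% in cell 3, and no cell had every bin in contact. Its contact frequency was lowest near the middle. The 1-Mb stretch chr5:24200001-25200000 had a mean of 62.41%, against 91.38% in chr5:26200001-27200000 and 67.59% in the first stretch, chr5:17200001-18200000. Where single cells broke the domain was not tested. The lowest bin, chr5:24300001-24400000, was in contact in 6 cells (20.69%), just enough to keep the 14.2 Mb as 1 run under the rule. Its longest unbroken contact in a cell was 1 Mb at the lowest, 4.1 Mb at the median and 7.5 Mb at the highest, and a cell contacted it in a median of 11 separate runs.

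**Figure D2:**
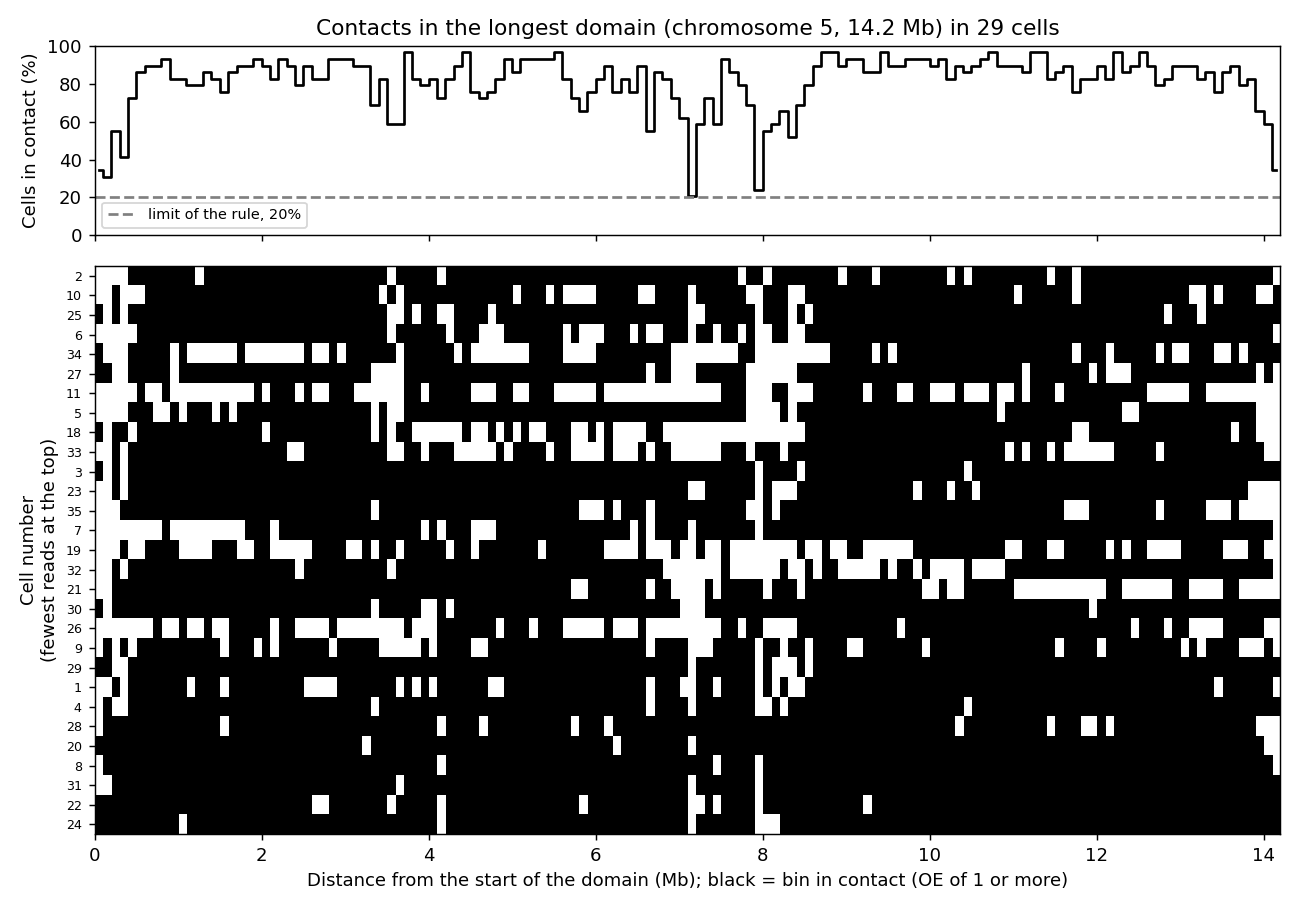
Contacts along the longest domain, by distance from its start in Mb. The upper panel gives the percent of the 29 cells in contact per 100-kb bin, with the 20% limit dashed, and the lower panel marks bins in contact (OE of 1 or more) in black for each cell. Most rows are black over most of the length, and a bin 7.1 Mb from the start dips to 20.69%.

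The second longest, chr4:27100001-37400000, was whole in 21 cells and in part in 8. Its coverage was 51.46%, 87.38% and 100% at the lowest, median and highest, and cell 8 contacted all of its 10.3 Mb without a gap. That was the longest unbroken contact found within the domains. Another domain of the same chromosome, chr4:174300001-183700000, was contacted less completely, with 14 cells whole and 15 in part, and coverage of 50%, 79.79% and 95.74%. One more, chr4:60500001-68300000, stood between with 19 whole and 10 in part, and coverage of 48.72%, 83.33% and 96.15%. None of the 3 had a cell under 20%.

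The domain chr2:76000001-85100000 was whole in 13 cells and in part in 16. Its coverage ran widely, with 20.88% in cell 6, 79.12% at the median and 98.9% in cell 25. Cells 6 and 25 had nearly equal depth (80572 and 79421 reads). On chromosome 12, chr12:80600001-89200000 was whole in 17 cells and in part in 12, with coverage of 38.37%, 81.4% and 98.84%. Its first bins up to the midpoint were contacted more often than the bins after it (83.24% against 71.21% mean contact frequency). On 9:22, positions 7200001 to 15300000 were whole in 17 cells and in part in 12, with coverage of 23.46%, 83.95% and 100%. Finally chr10:52500001-60000000 was whole in 19 cells and in part in 10, with coverage of 49.33%, 92% and 100%. The 8 longest domains thus had no cell with little contact. All 11 pairs with little contact were in 7 shorter domains and 8 cells.

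The most partial domain was chr13:68200001-73300000, contacted in part in 17 cells and whole in 12. The 2 sides of a domain are its bins before and after its midpoint, and a side was called in contact where 50% or more of its bins were. In this domain the second side was in contact without the first in 10 cells, the first without the second in 2, both in 15 and neither in 2. Mean contact frequency was 57.66% on the first side and 84.28% on the second. The second side was contacted more often, a difference that the contact frequencies used by the rule already hold.

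More domains were contacted whole in cells with more reads, as the plot by reads per cell shows. Over the 29 cells, the number of domains whole had Pearson's r = 0.8386 and Spearman's rho = 0.8719 with log10 reads, and mean coverage had r = 0.7685 and rho = 0.831. The points share 1 table and 1 expectation and differ in library and depth, so these are descriptions. Cell 2, the sparsest, contacted 10 domains whole and 16 in part, and cell 24, the deepest, 25 whole and 1 in part. The sequence was not strict: cell 5 with 85254 reads had 4 whole, 18 in part and 4 little, and cell 19 with the median 126621 reads had 6 whole and 20 in part. Cells with more contacts elsewhere also covered the domains more, with r = 0.8463 and rho = 0.8338 between mean coverage and the share of the other autosomal bins in contact.

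**Figure D3:**
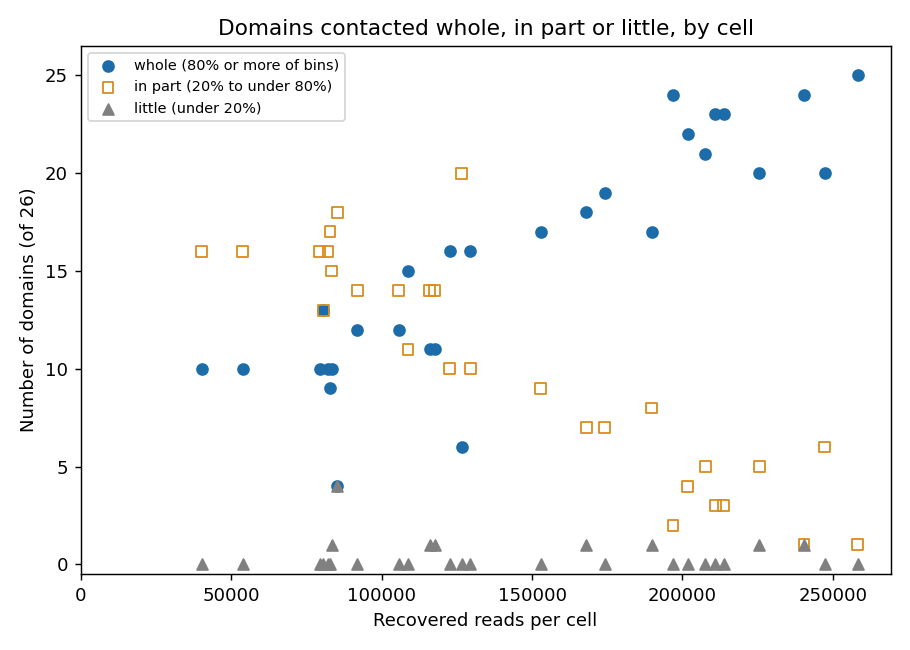
Number of the 26 domains contacted whole (circles), in part (open squares) and little (triangles) in each of 29 cells, against recovered reads per cell. Circles lie at 10 in the sparsest cell and at 25 in the deepest, and the triangle at 4 is cell 5.

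At equal depth the split moved toward partial contact. Thinning leaves fewer reads per bin, so bins can also fall under the limit by sampling, and the size of that part was not tested. With every cell thinned to 40279 reads, 363 pairs were whole (48.14%), 386 in part and 5 little, and cells contacted 4 to 21 domains whole. Mean coverage was 74.17% ± 6.972 per cell (SD, n = 29), with 53.11% in the lowest cell and 84.14% in the highest. Coverage at equal depth still went with the reads a cell had before thinning (r = 0.6627, rho = 0.7921, n = 29). Whether the cells with more reads had more contacts, or more methylated fragments to sequence, was not tested.

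Partial contact came with several breaks per domain. In the 295 pairs in part, the contacted bins fell into a median of 9 separate runs (2 to 25). The longest run had a median of 1.5 Mb (0.2 to 5.5 Mb) and the longest gap a median of 0.7 Mb (0.2 to 4.4 Mb). Of these pairs, 79 (26.78%) had a gap of 1 Mb or more and 64 (21.69%) had no gap as long as 0.5 Mb. In the 448 whole pairs, the runs numbered a median of 4, the longest run was 3.85 Mb (1 to 10.3 Mb) and the longest gap 0.2 Mb. The classes were set by the share of bins in contact, which builds in longer runs and shorter gaps in whole pairs. Whole pairs also came more from cells with more reads, and their runs at equal depth are not given. At equal depth the 386 pairs in part had a median of 11 runs, a longest run of 1.3 Mb and a longest gap of 0.5 Mb, and 67 of them (17.36%) had a gap of 1 Mb or more. At full depth, an unbroken contact of 5 Mb or more was found in 119 of the 754 pairs.

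A clean split, with both a contacted run and a gap of 2 Mb or more in 1 domain, was found in 2 pairs, named here after their values were seen. In cell 23, chr18:61200001-67800000 was covered at 50%, with a run of 3.1 Mb and a gap of 3 Mb. In cell 5, the 9:22 domain was covered at 62.96%, with a run of 3.7 Mb and a gap of 2.6 Mb. The other pairs in part had no such split at full depth, and 2 pairs had one at equal depth. The rule is strict, because a single bin across the OE limit ends a run or a gap. With a side called in contact at 50% or more of its bins, 1 side alone was in contact in 96 of the 754 pairs.

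Bins out of contact inside the domains were mostly not empty. Of 11238 such bin values, 28.34% had an OE of 0, 28.83% lay above 0 and under 0.5, and 42.83% lay at 0.5 or more. Their mean OE was 0.4102, against 0.03597 in the 10838 autosomal bins in contact in no cell, of whose values 87.12% were 0. An OE under 1 is how both sets were chosen, but the second had to be under 1 in all 29 cells. Of 4843 gaps, 2709 (55.94%) were 1 bin long, but these held only 24.11% of the bins out of contact. At equal depth 61.69% of gaps were 1 bin long and held 31.46% of such bins. Contacted bins also had lower OE where the domain was contacted in part, 2.481 ± 0.5901, against 3.709 ± 0.8356 in domains contacted whole (means per cell, SD, n = 29). Coverage and OE come from the same values, so these are descriptions.

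Gaps of 1 Mb or more numbered 123 at full depth (95 at equal depth) and held 16.3% of the bins out of contact. They fell in 92 pairs, 24 domains and 24 cells, 46 at a domain end and 77 inside. In the other cells, the bins of the inner gaps had a mean contact frequency of 76.01%, against 77.2% for their whole domains. The bins of gaps at an end had 66.78% in the other cells, against 75.47% for their whole domains. The longest gap, 4.4 Mb in a domain of chromosome 2 in cell 5, had a mean OE of 0.1614.

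Some short breaks did recur at the same bins in many cells. By a rule chosen after the values were seen, a bin whose contact frequency was 30 points or more under the mean of its 4 neighbours was called a focal dip. There were 30 in 16 domains, of 1707 bins searched, and 3 rises of that size. Only bins of the domains were searched, so the count cannot be called particular to them. How many such dips the sampling of 29 cells alone would give was not tested. A bin can be in contact in no more than all 29 cells, and the median contact frequency of member bins was 82.76%. Beside neighbours that high a rise of 30 points was not possible, so the count of rises is no measure for the count of dips. The deepest dip was chr18:66300001-66400000, in contact in 7 of 29 cells (24.14%), against 83.62% in its neighbours, with a mean OE of 0.6036, against 2.65. In 20 cells both adjacent bins were in contact, and 13 of these cells lacked the bin between them. Another, chr7:121000001-121100000, was in contact in 27.59% of the cells, against 85.34% in its neighbours, and chr4:178200001-178300000 in 20.69%, against 71.55%. The next bin, chr4:178300001-178400000, was a focal dip too, so not every dip stood alone. Expected reads of the 30 bins had a median of 0.9905 of the autosomal median (0.04747 to 1.291), with the lowest at chr1:83700001-83800000. What lies in these bins was not looked up, because no annotation of hg19 was used here.

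Whether the parts of a domain go together within a cell is not set by the rule, which fixes in how many cells a bin is in contact and not in which. In the 754 pairs, both sides were in contact in 618, neither in 40, and 1 of the 2 in 96 (48 the first and 48 the second). Sides of 1 domain were alike, both in contact or both not, in 87.27% ± 10.13 of domains per cell, against 80.28% ± 13.43 for the 1220 pairs of sides on different chromosomes in the same cell (SD, n = 29). The difference was 6.985 ± 7.814 points and was above 0 in 24 of 29 cells (two-sided sign-flip permutation test over cells, 100000 resamples, Benjamini-Hochberg over 2 tests, adjusted p = 1e-05, the smallest they can give). Where nearly all sides were in contact the 2 shares were close: 96.15% against 96.07% in cells 4, 22 and 26, and 96.15% against 96.56% in cell 1. The sign says little in such cells, so the count of cells holds near ties. At equal depth the difference was 7.758 points and above 0 in 24 cells. With the 6 domains of 80 or more bins alone it was 4.351 points, above 0 in 10 cells, and missed the threshold (permutation p = 0.1171 before adjustment, 1e-05 to 0.1171 over the alternatives). It was above 0 in 17 cells with an OE limit of 0.5 (2.472 points) and in 27 with a limit of 2 (18.38 points). With a contact frequency of 30% or more per bin it was 6.459 points, above 0 in 17 cells.

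Chromosome and domain were only partly separated by this call. Sides of different domains on 1 chromosome (80 pairs) were alike in 86.55% ± 11.7 per cell, within the spread of the 87.27% within a domain. Chromosome 4, with 5 domains, gave more of these pairs than any other chromosome, and its sides were in contact in most cells. Likeness that comes from high contact frequency alone was not taken off this value. Both sides were in contact in 618 of the 754 pairs. With each side called against its own median OE over cells, a setting chosen after the values were seen, sides of 1 domain were alike in 69.5% ± 9.19, sides of different domains on 1 chromosome in 51.9% ± 9.628 and sides on different chromosomes in 50.25% ± 1.909. The difference between a domain and different chromosomes was then 19.25 points and was above 0 in 28 of 29 cells. The difference between a domain and other domains of its chromosome was not tested.

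By domain, sides were alike in 17 of 29 cells at the lowest (chr13:68200001-73300000) and in all 29 at the highest (chr5:102600001-108000000). The average over domains was 87.27%, against 79.95% computed from the number of cells in which each side was in contact, and 19 of 26 domains were above that computed share. The excess was highest in chr14:25200001-31000000, at 19.5 points, where both sides were in contact in 18 cells, neither in 5 and 1 alone in 6 (2 the first, 4 the second). It was lowest in chr4:60500001-68300000, at -2.14 points, where both were in contact in 23 cells, neither in none and 1 alone in 6. In the chromosome 4 domain at least 1 side was thus in contact in every cell, and the difference between these domains was not tested. The computed share takes cells as unrelated, and cells differed in depth.

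Likeness fell off with distance inside a domain, up to 4.5 Mb. Segments of 0.5 Mb, in contact where 50% or more of their bins were, were alike in 85.29% ± 6.714 of pairs when 0.5 Mb apart, in 82.99% at 1 Mb, 79.47% at 2 Mb, 77.9% at 3 Mb, 75.31% at 4 Mb and 72.89% at 4.5 Mb. Segments 0.5 Mb apart were alike more often than segments 4 Mb or more apart (73.82% ± 11.02), by 11.47 ± 5.775 points and in 29 of 29 cells (same permutation test, adjusted p = 1e-05, the smallest they can give). At equal depth the difference was 11.9 points and again above 0 in 29 cells. Pairs far apart reach the domain ends more often, where contact frequency was lower. Without the 5 outermost bins at each end the difference was 5.752 points over 19 domains. With each segment called against its own median OE, likeness was 75.91% at 0.5 Mb, 64.84% at 2 Mb and 61.39% at 4.5 Mb. Beyond 4.5 Mb fewer domains remained. By the first call likeness was then 73.39% at 5 Mb (19 domains), 76.99% at 6 Mb (13 domains) and 74.92% at 7 Mb (8 domains). Against the own median it was 58.21% at 5 Mb, 59.19% at 6 Mb and 55.76% at 7 Mb. The set of domains changed with distance there, so whether likeness fell further cannot be read from these values.

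**Figure D4:**
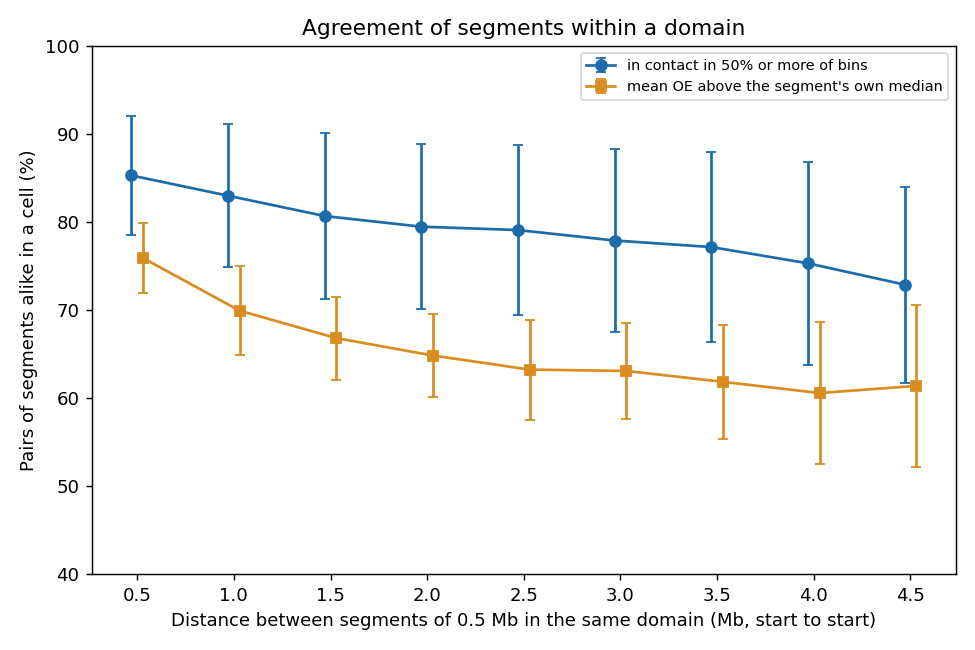
Percent of pairs of 0.5-Mb segments of the same domain that were alike in a cell, against the distance between their starts in Mb. Points are means and bars SDs over 29 cells, the axis starts at 40%, and circles (contact in 50% or more of bins) run from 85.29% at 0.5 Mb to 72.89% at 4.5 Mb, while squares (mean OE above the segment's own median) run from 75.91% to 61.39%.

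Coverage was also followed over cells. The Pearson correlation of coverage between the sides of a domain averaged 0.6471 ± 0.1266 (SD over 26 domains, each over 29 cells). Between domains of 1 chromosome it averaged 0.3497 ± 0.1608 (20 pairs) and between domains of different chromosomes 0.2293 ± 0.1917 (305 pairs). Chromosome 4 gave more of the 20 pairs than any other chromosome. With the mean coverage of each cell taken off, the averages were 0.5419, 0.1394 and -0.04771. All are descriptions over cells that share depth, and sides of a domain adjoin each other. The domain chr3:75700001-80700000 had the highest value between sides after this step (0.7828) and chr13:68200001-73300000 the lowest (0.18). Among the 20 pairs on 1 chromosome, chr4:27100001-37400000 and chr4:60500001-68300000, with 23.1 Mb between them, had the highest value (0.4398).

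Low coverage of 1 domain was set beside contacts on the rest of its chromosome. With the mean of the cell taken off, coverage of a domain and contact of the other bins of 20% or more on its chromosome had a median r of 0.3789 over domains (-0.095 to 0.8503), above 0 in 25 of 26. In cell 5 the domain chr18:61200001-67800000 was covered at 9.091%, and 19.37% of the 315 other such bins of chromosome 18 were in contact, the lowest of any cell (median 70.48%). In 2 deep cells, picked after their values were seen, coverage of a domain was low while more of the rest of its chromosome was in contact. Mean OE of these domains was 0.6981 in cell 24 and 0.6809 in cell 31, under the limit but not near 0. Cell 24 contacted 25 domains whole but covered chr3:75700001-80700000 at 20% (10 of 50 bins), while 65.45% of the 877 other such bins of chromosome 3 were in contact (median 71.84%, and 9 cells had less). Cell 31 contacted 24 domains whole but covered chr16:59100001-65500000 at 17.19%, while 46.75% of the 77 other such bins of chromosome 16 were in contact (median 42.86%). After thinning, cell 24 covered its domain at 30%, against a median of 80%. No value after thinning is given for cell 31.

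The domains were set beside shorter runs to see whether length itself went with fuller contact. In windows of 1 Mb, all 10 bins were in contact in 41.22% ± 16.04 of the 171 windows of the domains per cell and in 28.8% ± 11.81 of the 535 windows of runs of 10 to 49 bins (SD, n = 29). No bin was in contact in 1.875% and 5.214%, in the same order. Windows were then compared at like contact frequency. In windows with a mean frequency of 80% or more, all bins were in contact in 53.38% in the domains and 52.4% in shorter runs, and at 60% to under 80% in 25.68% and 24.98%. At 40% to under 60% the values were 16.09% ± 15.09 in the 6 such windows of the domains and 11.3% ± 5.541 in those of shorter runs. Length and frequency come from the same calls, so no test was made.

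The cells not used to choose the domains gave a measure independent of that choice. In cells 13, 15 and 17, with 985, 1221 and 1755 reads, 199, 279 and 323 reads fell in the domains. That was 21.87%, 24.6% and 20.16% of the autosomal reads, with exact 95% binomial intervals of 19.22% to 24.7%, 22.12% to 27.22% and 18.22% to 22.21%, for 7.216% of the bins. The intervals cover counting error only, because reads after PCR are not independent molecules. Per 100 bins the domains had 10.99, 15.41 and 17.84 reads, against 3.053, 3.672 and 5.493 in all other autosomal bins, or 3.66-fold more (mean log2 difference 1.87 ± 0.19, SD, n = 3). Against bins of 20% or more in shorter runs, with 7.847, 9.746 and 14.17 reads per 100 bins, the domains had 1.407-fold more. These 2 sets were not matched in contact frequency (median 82.76% in the domains and 65.52% in the other bins). No fold at like frequency is given. All 3 cells lay in the same direction in both comparisons, and the exact two-sided sign-flip p was 0.25 for each, the smallest that 3 cells allow. Each of the 26 domains had at least 1 read in each of the 3 cells, with 1 to 15, 3 to 29 and 6 to 28 reads per domain. At this depth, with 10.44% to 15.9% of member bins holding a read, whole and partial contact could not be told apart.

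**Figure D5:**
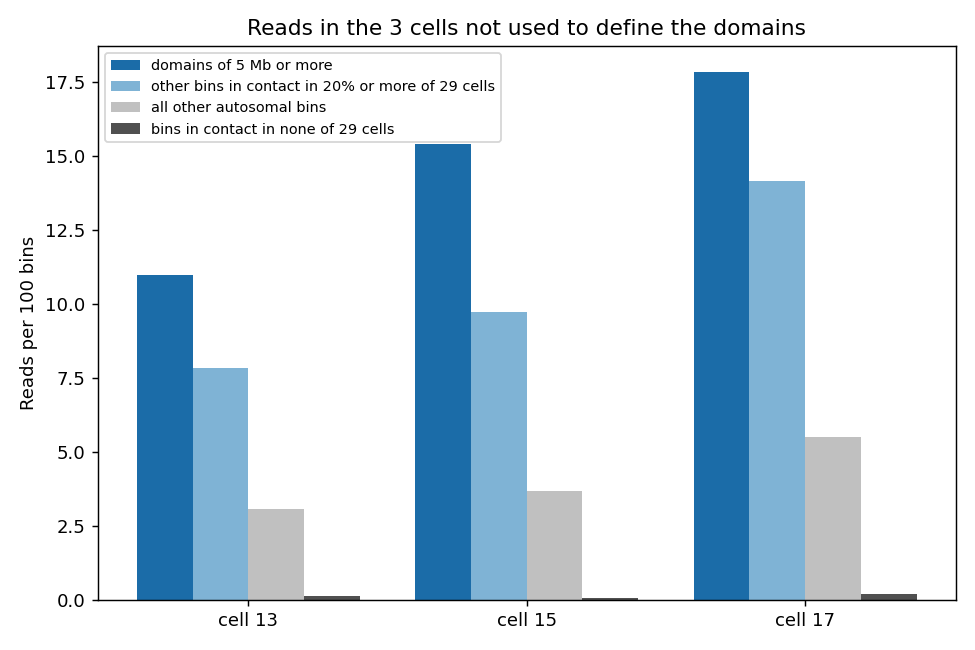
Reads per 100 bins in the 3 cells that were not used to choose the domains, in the domains, in other bins in contact in 20% or more of the 29 cells, in all other autosomal bins and in bins in contact in none of them. The domains had 10.99 to 17.84 reads per 100 bins, the highest bar in each cell.

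The expectation behind the ratio differed little between the sets. Expected reads per bin, relative to the autosomal median, had a median of 0.9747 in member bins (quartiles 0.8924 and 1.066), 1.006 in shorter runs and 1 in the bins under 20%. With expected reads in place of bins, the domains had 3.458-fold more reads than the other autosomal bins in the cells not used to choose them.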

How the data were processed

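The deposited table gives, per the file headers, 1 column per cell, holding a ratio made by the authors, observed over expected reads (OE), per 100-kb bin. Per the submitters' processing notes, cutadapt, Bowtie2 2.1.0 and the build hg19 were used. The making of the expectation, any read filters and any removal of duplicates are not stated there and are not given in the sources used. Positions are hg19, counted from 1. The labels list 35 samples, of which 32 matched a column by sample number, and samples 12, 14 and 16 were not analysed here. Of 30376 bins, 26584 had a value in all cells.

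Whole reads were recovered as the largest step dividing a bin's values. All values came out whole within 0.01 reads, which follows from the method. They gave depth, thinning and expected reads.

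Each sample is 1 cell, and nothing says that cells came from separate cultures, so p-values measure only the spread between these cells. The sign-flip test of the sides was checked on simulated data, in which cells did not differ in depth. The test of the segments was not checked in that way. Python 3.11.15, numpy 2.4.6, scipy 1.17.1, pandas 2.3.3 and matplotlib 3.10.9 were used. The 8 longest domains were named in full, then those with extreme shares of whole or partial contact or of alike sides, and those next to the limit of 50 bins. Members, lists and rules were chosen with earlier results of these data known. Alternatives were other limits, thinning, other cells, other domains and other calls of a side or segment. No gene is named, because no annotation of hg19 was used here, and the planned annotation of the domains was not run.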

Additional observations from a re-analysis of the deposited data

Results flagged for a closer look

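The X chromosome was outside the comparisons, which used autosomes, and it held long contacted domains too. By the same limits it had 4 runs of 50 or more bins (230 bins), and 69 of their 116 pairs with a cell were contacted whole (59.48%), 47 in part and 0 little. The domain chrX:31300001-37100000 was whole in 23 of 29 cells and in part in 6, and chrX:89700001-95900000 was whole in 13 and in part in 16. Choosing bins by these calls builds in high coverage on X as on the autosomes, and no control cells were used here to set the level against.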

How the results depend on the processing

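Of 78 values recomputed under other settings, 70 kept their direction and side of the threshold or stayed within 1 SD over cells, 7 moved further, 1 missed the threshold and 0 reversed. That SD was wide, at 22.65 points for whole and 21.86 for partial contact. A share counted as kept could thus change which outcome was more frequent. At equal depth 48.14% of domains per cell were whole and 51.19% in part, both counted as kept. The split between whole and partial contact rested on the OE limit. At a limit of 2, 19.76% of domains per cell were whole, 72.55% in part and 7.692% little. Counting any value above 0, 90.72% were whole and 9.284% in part. With whole set at 90% and little under 10%, 62.73% were in part and 36.87% whole, the latter counted as kept. Other settings moved the split toward whole contact, within 1 SD over cells. With whole set at 70% and little under 30%, 73.34% were whole and 22.81% in part. With gaps of a single bin closed, 69.5% were whole and 29.44% in part. At an OE limit of 0.5, 78.91% were whole and 21.09% in part. With cells 13, 15 and 17 added, 9.856% were little. Sides alike on 6 domains of 80 or more bins missed the threshold at 4.351 points (p = 0.1171), with fewer domains by construction. That difference was 0.2426 points for any value above 0, above 0 in 7 of 29 cells, and 13.55 with coverage called against its own median. The value of 0.2426 points was counted as kept by its sign and permutation p (0.0155 before adjustment), small as it was. The difference between near and far segments was 5.965 points at an OE limit of 0.5 and 2.512 for any value above 0.

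Settings added after the data were seen were calls against the median OE, trimmed ends and leaving out cell 5. Without cell 5, 60.99% of domains were whole, 38.05% in part and 0.9615% little, the sides differed by 6.495 points and the segments by 11.32. The fold of reads in the 3 sparse cells was 3.458 to 4.564 over its alternatives. No paired analysis was possible because the labels give 1 group, so no replicate number is shared between groups. The sign-flip tests compare values within each cell. Depth limits the call of single bins: in the sparsest cell 2 reads were needed in a typical bin. Both chromosome copies enter each value.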
